A study of Mus musculus with 8 samples.

Results

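Citrate cycle enzymes and subunits of pyruvate dehydrogenase were examined as a set of 9 genes, taken by symbol from the table of expression values: Pdha1, Pdhb, Dlat, Cs, Idh3a, Ogdh, Suclg1, Fh1 and Mdh2. They are 9 of the 19688 genes in the table, and all 9 were among the 10755 genes tested, those at 1 FPKM or more in at least 2 libraries. FPKM counts the sequenced fragments of a gene relative to the length of its transcript and to the size of the library. None of the 9 passed the test between any of the groups. Dlat was nearest to it, at 32.1 ± 4.88 FPKM (SD, n = 3) in blastocysts vitrified with melatonin against 17.5 ± 8.9 FPKM (SD, n = 2) in fresh ones.

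Pyruvate dehydrogenase is the mitochondrial complex that turns pyruvate into acetyl-CoA. Its E1 component, built of an α and a β subunit, removes carbon dioxide from pyruvate, its E2 component passes the acetyl group to coenzyme A, and its E3 component reoxidises the lipoyl arm of E2. The citrate cycle then condenses acetyl-CoA with oxaloacetate and oxidises it step by step, feeding electrons to the respiratory chain. Pyruvate is a main fuel of the early mouse embryo, and the blastocyst also takes up glucose.

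The samples were mouse blastocysts in 3 groups. Fresh blastocysts that had not been vitrified, with titles that carry the abbreviation IVF, were the control (2 libraries). Vitrified blastocysts had been cooled to a glass-like state and thawed without melatonin (3 libraries). In the melatonin group (3 libraries), the media for vitrification and for thawing held melatonin, an antioxidant indoleamine hormone, at 1e-10 M. The labels give no strain, no embryo age, no number of embryos per library and no statement that replicates came from separate sets of embryos, so p-values measure the spread between these libraries, which may be technical. The library method is ambiguous, since the series text names Smart-seq2, used for very little RNA, and the protocol of the samples describes poly(A) selection with strand-specific libraries.

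From the smallest steps in the FPKM values, the libraries held an estimated 5812000 to 9927000 fragments, and 14260 to 16400 genes were above 0. All 8 epiblast, 9 primitive endoderm and 9 trophectoderm markers had values, as the blastocyst label would have it. Trophectoderm markers summed to 6978 to 12115 FPKM, most of it from the keratins Krt8 and Krt18. Epiblast markers summed to 100.3 and 124 FPKM in the fresh libraries, 204 to 356 in vitrified and 186 to 255 in melatonin libraries. Of these, Nanog, Tdgf1 and Gdf3 were lowest in the fresh libraries, while the others overlapped between fresh and vitrified or melatonin libraries. Utf1 gave 69.0 FPKM of the sum in fresh replicate 1 and 155 in vitrified replicate 2. Pou5f1 in fresh replicate 2 (30.3 FPKM) was above all melatonin libraries (25.1 to 27.9 FPKM). Primitive endoderm sums overlapped: 107 to 181 FPKM in fresh, 160 to 224 in vitrified and 121 to 171 in melatonin libraries. Markers of cumulus cells (1 of 8 with a value, Has2), blood (2 of 4), fibroblasts (2 of 5) and sperm (3 of 4) summed to at most 2.03 FPKM in any library. Fresh replicate 1 stood apart. Its mitochondrially encoded transcripts took 11.3% of the summed FPKM, against 4.24 to 6.56% in the other 7 libraries, and the 9 enzyme genes took 0.261% there against 0.297 to 0.396%. Y-linked transcripts summed to 0 FPKM in vitrified replicates 2 and 3, where the X-inactivation transcript Xist was at 10.5 and 8.14 FPKM. In every other library they summed to 20.9 to 36.8 FPKM. Comparisons with the vitrified group include this difference between libraries. The part of the marker sums, of the Y-linked and Xist transcripts and of the mitochondrial share in the results for the enzyme genes was not tested.

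The E1 subunits of pyruvate dehydrogenase come from genes on different chromosomes. Pdha1 (ENSMUSG00000031299, chrX:160122209-160138413 on the minus strand of GRCm38) encodes the catalytic E1α subunit, the target of the inhibitory pyruvate dehydrogenase kinases. It was at 71.1 and 113 FPKM in fresh replicates 1 and 2, at 99.7, 94.6 and 140.0 FPKM in vitrified replicates 1 to 3, and at 99.1, 110.4 and 103 FPKM in melatonin replicates 1 to 3. The highest library was vitrified replicate 3 and the lowest fresh replicate 1, and the 3 groups overlapped. Pdhb (ENSMUSG00000021748, chr14:8165996-8173025, minus strand) encodes the E1β subunit. It was at 268 and 424 FPKM in fresh, at 291, 269 and 331 FPKM in vitrified, and at 356, 358 and 373 FPKM in melatonin libraries. All 3 melatonin libraries lay above the 3 vitrified ones, and the fresh pair spanned both groups.

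Dlat (ENSMUSG00000000168, chr9:50634633-50659780, minus strand) encodes the E2 acetyltransferase, which carries the lipoyl arm and forms the core of the complex. It was at 11.2 and 23.8 FPKM in fresh, at 25.0, 15.9 and 25.7 FPKM in vitrified, and at 34.8, 35.0 and 26.5 FPKM in melatonin libraries. The 3 melatonin libraries were the 3 highest of all 8, while fresh and vitrified libraries overlapped. Cs (ENSMUSG00000005683, chr10:128337734-128362479, plus strand) encodes citrate synthase, which joins acetyl-CoA to oxaloacetate at the entry of the cycle. It was at 80.8 and 117 FPKM in fresh, at 116, 85.2 and 120.2 FPKM in vitrified, and at 134, 126 and 140.2 FPKM in melatonin libraries. As for Dlat, the 3 melatonin libraries were the 3 highest, and fresh replicate 1 and vitrified replicate 2 were the lowest.

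Idh3a (ENSMUSG00000032279, chr9:54586334-54604661, plus strand) encodes the catalytic α subunit of the NAD-dependent isocitrate dehydrogenase, an oxidative step at which the cycle is regulated. It was at 345 and 382 FPKM in fresh, at 357, 329.6 and 365 FPKM in vitrified, and at 321, 387 and 324 FPKM in melatonin libraries. The groups overlapped throughout. Ogdh (ENSMUSG00000020456, chr11:6291633-6356642, plus strand) encodes the E1 component of the 2-oxoglutarate dehydrogenase complex, which is built like pyruvate dehydrogenase and shares its E3. It was at 12.5 and 20.98 FPKM in fresh, at 23.8, 16.5 and 23.3 FPKM in vitrified, and at 36.1, 20.4 and 24.0 FPKM in melatonin libraries. Melatonin replicate 1 was well above the other 7 libraries, fresh replicate 1 was the lowest, and the groups overlapped.

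Suclg1 (ENSMUSG00000052738, chr6:73248382-73276911, plus strand) encodes the α subunit of succinyl-CoA ligase, the step of the cycle that makes a nucleoside triphosphate. It was at 144 and 151 FPKM in fresh, at 147, 129 and 148.5 FPKM in vitrified, and at 130.3, 145.5 and 143 FPKM in melatonin libraries. These groups overlapped. Fh1 (ENSMUSG00000026526, chr1:175600374-175625635, minus strand) encodes fumarase, which hydrates fumarate to malate. It was at 28.3 and 30.5 FPKM in fresh, at 42.1, 33.7 and 43.1 FPKM in vitrified, and at 35.0, 38.5 and 34.8 FPKM in melatonin libraries. Both fresh libraries lay below all 6 vitrified libraries, with and without melatonin. Mdh2 (ENSMUSG00000019179, chr5:135778480-135790398, plus strand) encodes mitochondrial malate dehydrogenase, which restores oxaloacetate. It was at 227 and 257 FPKM in fresh, at 250.3, 241 and 250.3 FPKM in vitrified, and at 212, 280.5 and 285 FPKM in melatonin libraries. The melatonin group held both the lowest and the highest library, so its range enclosed the other groups.

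**Figure D1:**
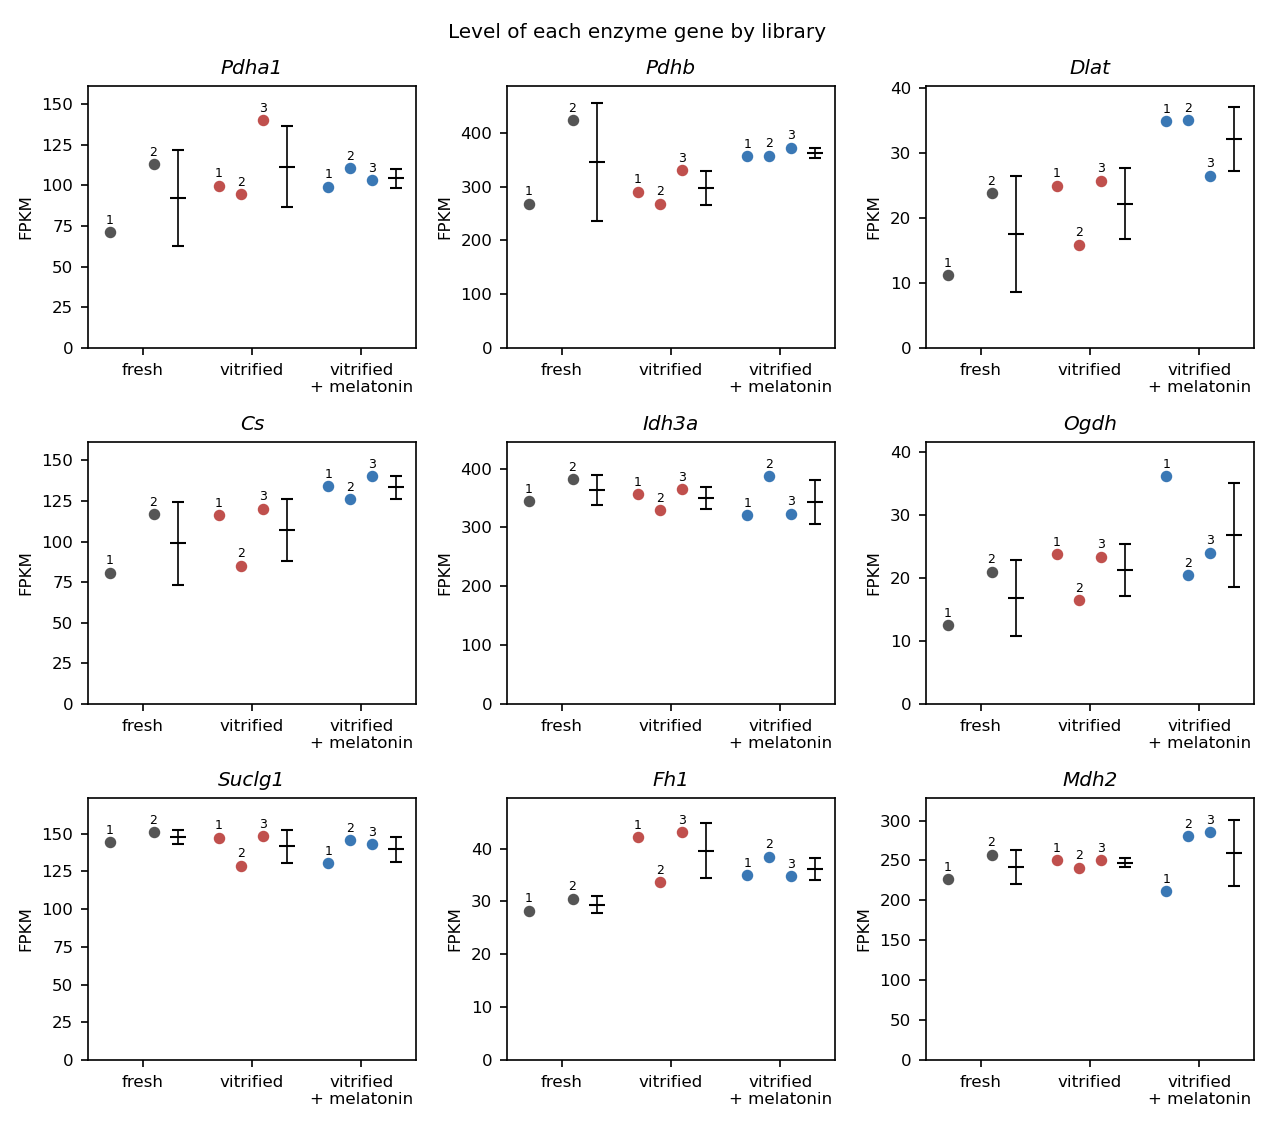
Level of each of the 9 enzyme genes in FPKM (vertical axis, from 0) in every library of the 3 groups; numbers are replicates, and bars to the right of the points give the mean ± SD. Dlat and Cs have their 3 highest libraries in the melatonin group, Fh1 has its 2 lowest in the fresh group, and Idh3a and Suclg1 lie within a narrow band in all 8 libraries.

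Per length, the genes fell into a high and a low tier that held in every library. Averaged over the 8 libraries, Idh3a was highest (351 FPKM), followed by Pdhb (334 FPKM), Mdh2 (250.4 FPKM), Suclg1 (142 FPKM), Cs (115 FPKM) and Pdha1 (104 FPKM). Fh1 (35.7 FPKM), Dlat (24.7 FPKM) and Ogdh (22.2 FPKM) followed at a distance. Of the 8 neighbouring pairs in this order, only Mdh2 with Suclg1 and Pdha1 with Fh1 had ranges that did not overlap. Pdhb exceeded Mdh2 and Fh1 exceeded Dlat within each of the 8 libraries although their ranges overlapped. Idh3a exceeded Pdhb in 5 of 8 libraries and Dlat exceeded Ogdh in 5 of 8, so those neighbours had no settled order. Of the tested genes, 1.47% had a higher mean than Idh3a and 23.6% a higher mean than Ogdh, so all 9 were well expressed.

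The spread over libraries differed widely among the 9 genes. Suclg1 varied least, with a highest library 1.17 times the lowest, followed by Idh3a (1.21 times) and Mdh2 (1.35 times). Fh1 varied 1.52 times, Pdhb 1.58 times, Cs 1.74 times and Pdha1 1.97 times. Ogdh (2.89 times) and Dlat (3.13 times) varied most. Counting error was small beside this: the library with fewest Dlat fragments held an estimated 440, a counting error of 4.8%, and the one with fewest Idh3a fragments 5730, or 1.3%.

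Promoter sequence was read for the genes whose melatonin libraries all lay above the vitrified ones, Pdhb, Dlat and Cs, and for Pdha1, the partner of Pdhb in E1 that did not share this order. Each window runs from 250 bases before to 50 bases after a RefSeq transcript start (GRCm38.p6), 5′ to 3′ on the gene's strand. Capitals mark CCAAT or its complement ATTGG, the letters bound by the factor NF-Y. The windows are chr14:8172943-8173242 (minus strand) for Pdhb, chr9:50659731-50660030 (minus) for Dlat, chr10:128337477-128337776 (plus) for Cs and chrX:160138381-160138680 (minus) for Pdha1.
Pdhb: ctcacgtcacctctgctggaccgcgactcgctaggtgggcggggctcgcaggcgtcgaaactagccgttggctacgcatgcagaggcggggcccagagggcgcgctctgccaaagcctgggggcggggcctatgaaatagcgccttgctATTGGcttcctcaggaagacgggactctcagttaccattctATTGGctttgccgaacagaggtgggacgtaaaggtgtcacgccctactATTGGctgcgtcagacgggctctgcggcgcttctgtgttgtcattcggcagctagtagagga
Dlat: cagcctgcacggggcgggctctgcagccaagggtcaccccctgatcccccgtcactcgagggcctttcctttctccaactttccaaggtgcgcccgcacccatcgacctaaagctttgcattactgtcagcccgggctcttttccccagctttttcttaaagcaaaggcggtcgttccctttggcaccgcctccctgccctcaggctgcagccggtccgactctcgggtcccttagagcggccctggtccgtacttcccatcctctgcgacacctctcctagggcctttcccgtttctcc
Cs: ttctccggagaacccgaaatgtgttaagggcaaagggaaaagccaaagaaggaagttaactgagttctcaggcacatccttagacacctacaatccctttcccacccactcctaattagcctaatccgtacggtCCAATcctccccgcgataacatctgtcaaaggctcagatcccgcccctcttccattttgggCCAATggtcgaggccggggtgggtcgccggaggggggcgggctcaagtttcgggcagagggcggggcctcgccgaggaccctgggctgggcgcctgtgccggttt
Pdha1: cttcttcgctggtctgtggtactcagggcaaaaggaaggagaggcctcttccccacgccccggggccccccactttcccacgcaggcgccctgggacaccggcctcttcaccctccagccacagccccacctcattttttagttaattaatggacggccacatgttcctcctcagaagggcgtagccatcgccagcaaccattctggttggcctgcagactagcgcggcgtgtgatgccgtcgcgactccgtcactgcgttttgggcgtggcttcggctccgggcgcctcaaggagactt

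The Pdhb window held 3 CCAAT motifs, all as ATTGG, and the Cs window 2, while those of Dlat and Pdha1 held 0. Of 32851 promoter windows in the RefSeq table, 37.4% held CCAAT on either strand and 3.37% held it at least 3 times. Promoters of 8 of the 9 genes were matched, Idh3a having no entry, and CCAAT was present for 4 of the 8: Pdhb, Cs, Ogdh and Fh1. The GC box GGGCGG, the letters of the Sp1 family, was present on either strand for 6 of 8, against 35.7% of windows. GCGCATGC, the core bound by the respiratory gene regulator NRF1, was present for 1 of 8, against 2.71% of windows, and AAGGTCA, the site of oestrogen-related receptors, for 1 of 8, against 4.72%. Both of these were in Ogdh, which has 6 windows, so a share of genes is not the same unit as a share of windows. Of the 13 windows of these genes, 9 held CCAAT, 9 the GC box, 2 GCGCATGC and 1 AAGGTCA. CCGGAAGT, bound by ETS factors, was present for 0 of 8, against 3.89% of windows. No motif contains another, and a match describes letters only.

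Comparing vitrified with fresh blastocysts asks how vitrification and thawing relate to these genes. Fh1 was 1.33 times as high after vitrification (folds are of FPKM + 1, from the fitted log2 means), 39.6 ± 5.17 (SD, n = 3) against 29.4 ± 1.6 FPKM (SD, n = 2), the only member whose groups did not overlap. Dlat, Ogdh and Pdha1 had higher means after vitrification and Pdhb a lower one, all with overlapping libraries. The differences of Cs, Idh3a, Suclg1 and Mdh2 were the smallest on the deposited scale, but not under median ratio scaling. In bulk embryos, a change in the number of cells of a type and a change of RNA per cell cannot be told apart.

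Differences are of mean log2(FPKM + 1), tested with limma across all 10755 genes, with p-values adjusted by Benjamini and Hochberg and a threshold of 0.05. Fh1 differed by 0.41 ± 0.16 (SE, 95% interval 0.046 to 0.78, unadjusted p = 0.0312, limma adjusted p = 0.201). It was the only one of the 9 with an unadjusted p below the threshold, as were 20.2% of tested genes. With higher libraries throughout, Fh1 was 1 of 9 where 26.4% of tested genes were, and 0 of 9 were lower throughout, where 10.6% were. Adjusted, 0 of 9 passed, against 93 of 10755 tested genes (0.865%), of which 82 were higher. The count of Fh1 alone is therefore no larger than the background.

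The difference for Pdha1 was 0.29 (95% interval -0.22 to 0.80, limma adjusted p = 0.512) and that for Pdhb -0.19 (-0.63 to 0.25, 0.621). Dlat differed by 0.39 (-0.32 to 1.09, limma adjusted p = 0.525) and Ogdh by 0.35 (-0.31 to 1.01, 0.537). Cs was at 0.12 (-0.34 to 0.58, limma adjusted p = 0.775), Mdh2 at 0.033 (-0.37 to 0.40, 0.936), Idh3a at -0.052 (-0.38 to 0.27, 0.871) and Suclg1 at -0.063 (-0.37 to 0.25, 0.834). For Dlat the interval runs from 0.801 to 2.13 times the fresh level, so it does not show that the groups were alike. The median over the 9 genes was 0.12, beside 0.14 over all tested genes and 0.055 over genes with a mean of at least 5 FPKM, as all 9 have.

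Several of these directions rested on fresh replicate 1. Without it, the differences of Pdha1, Dlat, Cs, Ogdh and Mdh2 turned to -0.041, -0.13, -0.14, -0.003 and -0.058, and the median of the 9 to -0.095, with Fh1 at 0.36. Scaling the libraries by median ratios moved the median of all tested genes from 0.14 to 0.007 and that of the 9 to -0.045, with Cs and Mdh2 below 0. Under it Fh1 was at 0.25 (limma adjusted p = 0.441), Suclg1 at -0.23 and Idh3a at -0.22, against 0.12 for Pdha1. Under quantile normalization Idh3a was above 0.

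Comparing vitrification with and without melatonin asks how the additive relates to these genes, in groups that also differ in Y-linked transcripts. Dlat was 1.45 times as high with melatonin, 32.1 ± 4.88 against 22.2 ± 5.48 FPKM (SD, n = 3 each), Cs 1.26 times, 133 ± 7.07 against 107 ± 19.2 FPKM (SD, n = 3 each), and Pdhb 1.22 times, 362 ± 9.23 against 297 ± 31.7 FPKM (SD, n = 3 each). In each of these 3 genes, every melatonin library was above every vitrified one, for Dlat by the margin of 26.5 over 25.7 FPKM. Pdha1, Idh3a, Suclg1, Fh1, Mdh2 and Ogdh had overlapping libraries.

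No difference of the 9 passed the test. Dlat differed by 0.53 ± 0.28 (SE, 95% interval -0.099 to 1.17, unadjusted p = 0.0893, limma adjusted p = 0.405). The difference for Cs was 0.33 ± 0.18 (-0.083 to 0.74, limma adjusted p = 0.43) and that for Pdhb 0.29 ± 0.17 (-0.099 to 0.68, 0.456). All 3 intervals include 0. Among all tested genes, 15 of 10755 passed (0.139%), 12 of them lower with melatonin, and 14.8% had an unadjusted p below the threshold, against 0 of 9 here. Libraries higher throughout were found for 3 of 9 members and 9.3% of tested genes, and libraries lower throughout for 0 of 9 and 15.4%.

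For the other 6 genes the intervals also included 0. Idh3a differed by -0.031 (95% interval -0.32 to 0.26, limma adjusted p = 0.93) and Suclg1 by -0.019 (-0.30 to 0.26, 0.958). For Mdh2 the difference was 0.056 (-0.27 to 0.38, limma adjusted p = 0.885), for Pdha1 -0.075 (-0.53 to 0.38, 0.891), for Fh1 -0.13 (-0.45 to 0.20, 0.721) and for Ogdh 0.30 (-0.28 to 0.89, 0.617). The median of the 9 was 0.056, beside -0.052 over all tested genes and -0.014 over genes with a mean of at least 5 FPKM. Under median ratio scaling Idh3a and Suclg1 were above 0, and under quantile normalization Suclg1 was.

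Vitrified replicate 2 weighed on this comparison, as the lowest vitrified library for all 9 genes. Without it, the differences were 0.32 for Dlat (limma adjusted p = 0.764), 0.17 for Cs (0.8), 0.22 for Pdhb (0.76) and 0.14 for Ogdh (0.904). Ogdh was at 0.076 without melatonin replicate 1, its highest library.

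Comparing the melatonin group with fresh blastocysts asks how far the treated embryos stood from embryos that were never vitrified. Dlat was 1.89 times as high, 32.1 ± 4.88 (SD, n = 3) against 17.5 ± 8.9 FPKM (SD, n = 2), and Cs 1.37 times, 133 ± 7.07 (SD, n = 3) against 98.8 ± 25.6 FPKM (SD, n = 2). Fh1 was 1.22 times as high, 36.1 ± 2.06 (SD, n = 3) against 29.4 ± 1.6 FPKM (SD, n = 2). For Dlat, Cs and Fh1 every melatonin library lay above both fresh ones, and Ogdh was 1.57 times as high with overlapping libraries. This comparison shares the fresh libraries with the first and the melatonin libraries with the second, so the 3 are not independent.

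Dlat differed by 0.92 ± 0.32 (SE, 95% interval 0.21 to 1.63, unadjusted p = 0.0161, limma adjusted p = 0.19). Ogdh differed by 0.65 ± 0.29 (-0.004 to 1.31, unadjusted p = 0.0512, limma adjusted p = 0.273) and Cs by 0.45 ± 0.21 (-0.007 to 0.91, unadjusted p = 0.0531, limma adjusted p = 0.277). Fh1 differed by 0.29 ± 0.16 (-0.079 to 0.65, limma adjusted p = 0.372). None passed, nor did any of the 10755 tested genes (0%). An unadjusted p below the threshold was found for 1 of 9 members, Dlat, and 18.5% of tested genes. Libraries higher throughout were found for 3 of 9 and 20.8% of tested genes, and lower throughout for 0 of 9 and 13.5%.

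For the other 5 genes the intervals included 0. Pdha1 differed by 0.21 (95% interval -0.30 to 0.73, limma adjusted p = 0.647) and Pdhb by 0.10 (-0.33 to 0.54, 0.819). Mdh2 differed by 0.089 (-0.28 to 0.46, limma adjusted p = 0.811), Idh3a by -0.083 (-0.41 to 0.24, 0.798) and Suclg1 by -0.082 (-0.39 to 0.23, 0.793). The median of the 9 was 0.21, beside 0.093 over all tested genes and 0.059 over genes with a mean of at least 5 FPKM. Under median ratio scaling Pdhb and Mdh2 were below 0, and under quantile normalization Idh3a and Suclg1 were above 0.

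The size of these values rested on which fresh library was kept. Without fresh replicate 2 the Dlat difference was 1.43, and without fresh replicate 1 it was 0.41. Either fit left the fresh group with 1 library, which has no spread of its own. Without fresh replicate 1 Ogdh was at 0.30, Cs at 0.19, Pdha1 at -0.12, Pdhb at -0.23 and Mdh2 at -0.002.

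**Figure D2:**
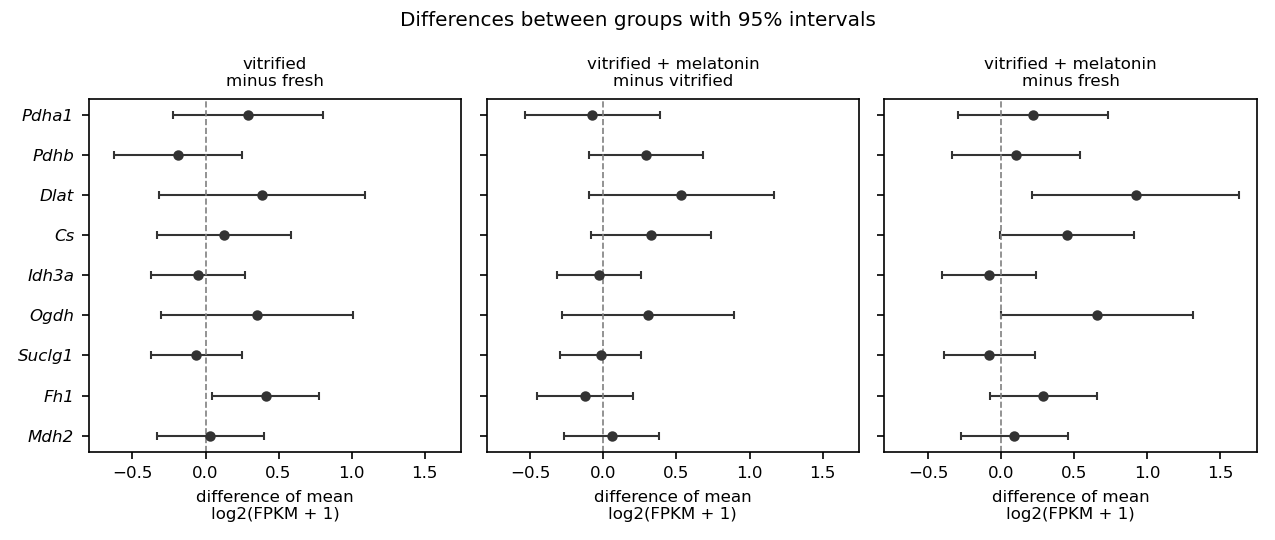
Difference of mean log2(FPKM + 1) between groups (horizontal axis, log2 units) for each of the 9 enzyme genes, with its 95% interval from limma, in the 3 comparisons. The interval lies above 0 for Fh1 in the first comparison and for Dlat in the third, and includes 0 for all other genes and comparisons.

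The 9 genes shared an order of libraries within groups that no group label describes. Fresh replicate 1 was below fresh replicate 2 for 9 of 9 genes, against 59.8% of tested genes. Vitrified replicate 2 was the lowest vitrified library for 9 of 9, against 33.4%. Fresh replicate 1 was the lowest of all 8 libraries for 6 of 9 (Pdha1, Pdhb, Dlat, Cs, Ogdh and Fh1), against 34.4%. The 9 genes were measured in the same libraries, so these counts are not 9 independent observations.

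Transcript length was set beside this order of libraries. In fresh replicate 1, the genes with the longest transcripts, Dlat (4035 bases) and Ogdh (4127 bases), lay furthest below their own means, and that with the shortest, Mdh2 (1606 bases), was at 227 FPKM against a mean of 250.4. The order by length was not strict: Pdhb (2377 bases) was at 268 FPKM against a mean of 334, while the longer Idh3a (2580 bases, 345 against 351 FPKM) and Suclg1 (2767 bases, 144 against 142 FPKM) were near their means. Across all genes with a mean of at least 5 FPKM, the median deviation in fresh replicate 1 was 0.295 for 640 genes with transcripts up to 1 kb and -0.285 for 2202 genes with transcripts over 3 kb. In melatonin replicate 1 the order was the opposite, at -0.304 and 0.112, and in vitrified replicate 2 short transcripts were at 0.223 and long ones at -0.006. After a transcript length trend was removed from each library, Dlat differed by 0.52 between melatonin and vitrified and by 0.71 between melatonin and fresh libraries (limma adjusted p = 0.333 and 0.237). Fh1 differed by 0.26 between vitrified and fresh libraries (limma adjusted p = 0.377). The correction was chosen after the values were seen.

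**Figure D3:**
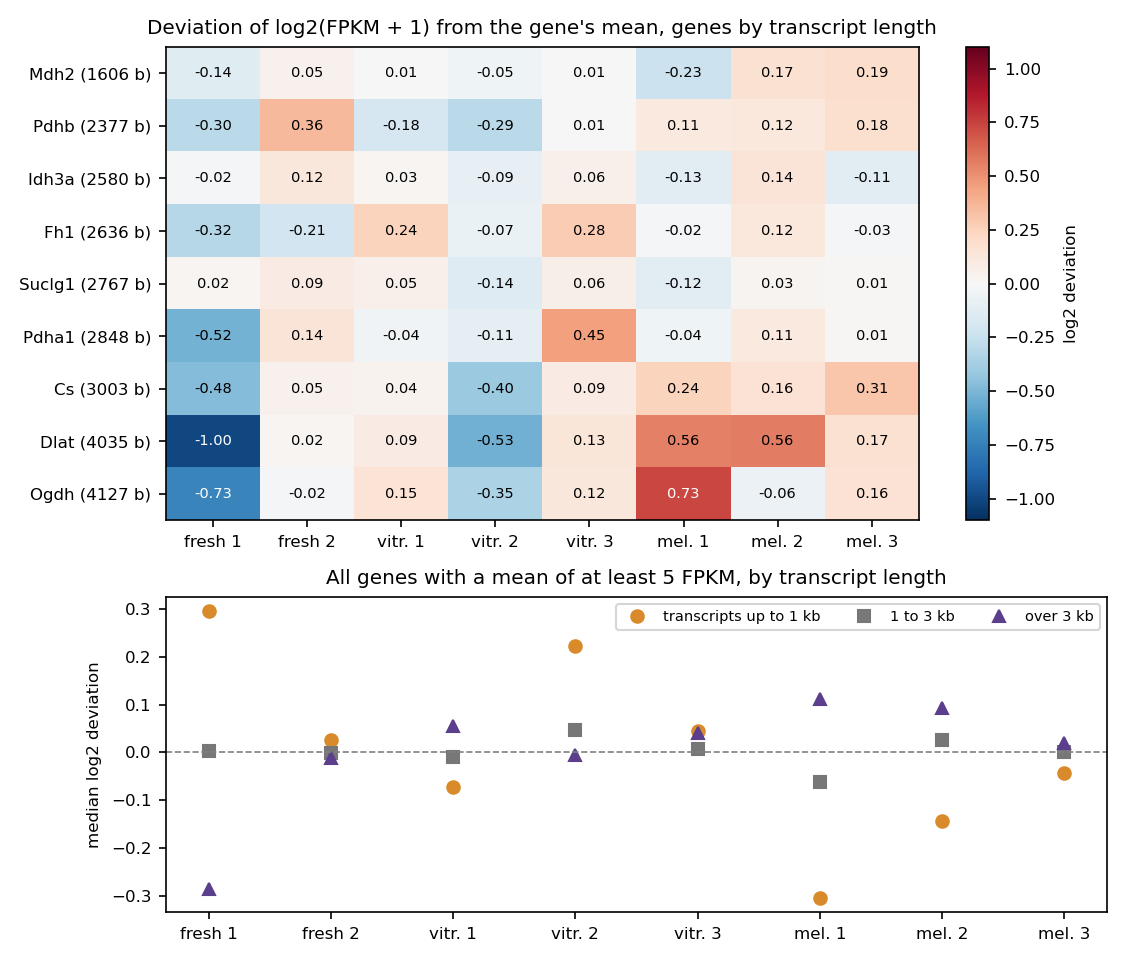
Upper panel, deviation of log2(FPKM + 1) from each gene's mean over the 8 libraries, with the 9 genes ordered by the length of their longest transcript in bases; lower panel, median log2 deviation of all genes with a mean of at least 5 FPKM in 3 classes of transcript length. Dlat and Ogdh are far below their means in fresh replicate 1, where short transcripts are at 0.295 and long ones at -0.285 over all genes.

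Ratios between the enzymes within a library describe their balance without the scaling of the library. Pdha1 was at 0.265 and 0.266 times Pdhb in the fresh libraries, at 0.343, 0.352 and 0.423 times in the vitrified, and at 0.278, 0.309 and 0.276 times in the melatonin libraries. The α subunit transcript was thus higher relative to the β subunit transcript in each vitrified library than in any other. This pair was chosen after its values were seen and was not tested. Pdha1 is X-linked, and Y-linked transcripts were not found in all libraries: 4 Y-linked genes summed to 20.9 to 36.8 FPKM in 6 libraries and to 0 in vitrified replicates 2 and 3, where the X-inactivation transcript Xist was at 10.5 and 8.14 FPKM. The part of these in the ratio was not tested, and vitrified replicate 1, with Y-linked transcripts at 36.8 FPKM and Xist at 0.684 FPKM, had a ratio of 0.343.

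Pdhb stood at 24.0 and 17.8 times Dlat in fresh, 11.6, 16.9 and 12.9 times in vitrified, and 10.2, 10.2 and 14.1 times in melatonin libraries. Both fresh libraries thus had the largest excess of E1β over E2 transcript, fresh replicate 2 by the margin of 17.8 over 16.9. The Dlat transcript is the longer (4035 against 2377 bases), and transcripts over 3 kb were low in fresh replicate 1 (median deviation -0.285). The part of transcript length in this ratio was not tested. Idh3a over Suclg1 was the steadiest of the ratios plotted, from 2.26 to 2.66 over the 8 libraries. Of the 36 ratios among the 9 genes, 11 (30.6%) did not overlap between vitrified and fresh libraries, where 37.6% of all gene pairs did not. Between melatonin and vitrified libraries 10 (27.8%) did not overlap, against 27.4% of pairs, and between melatonin and fresh libraries 14 (38.9%), against 38.2%. These shares are near or below the background, so separated ratios are no feature of this set.

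**Figure D4:**
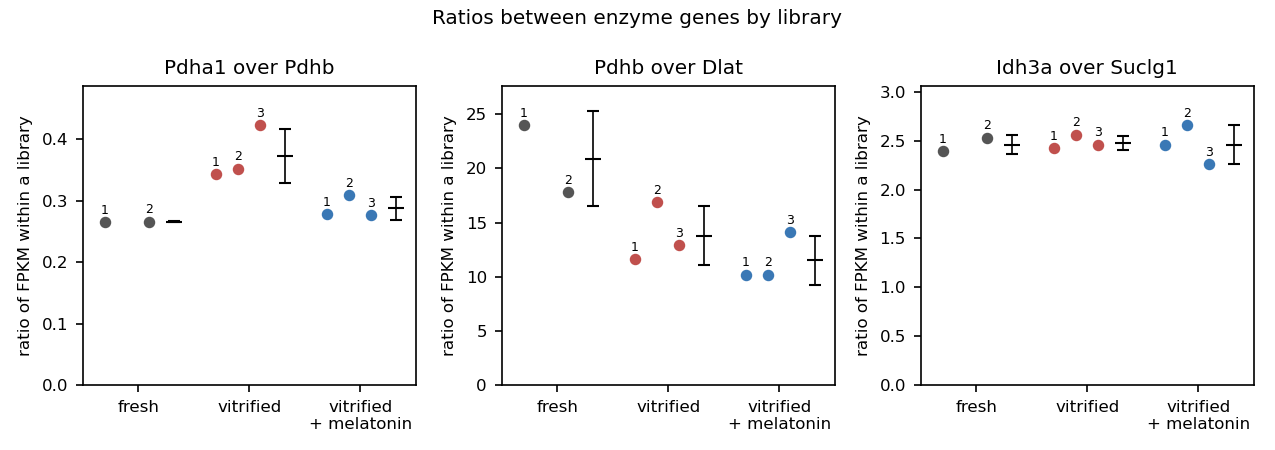
Ratios of FPKM within a library (vertical axis, from 0) for Pdha1 over Pdhb, Pdhb over Dlat, and Idh3a over Suclg1, in every library of the 3 groups; numbers are replicates and bars to the right give the mean ± SD. Pdha1 over Pdhb is 0.343 or more in the vitrified libraries and 0.309 or less elsewhere, and Idh3a over Suclg1 stays between 2.26 and 2.66.

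The rest of the pathway was read from lists of 56 genes, the 9 included: 55 had values and 48 were tested. Of these, 0 passed between any groups (limma, adjusted). Among the 39 tested genes other than the 9, an unadjusted p below the threshold was found for 12 higher and 0 lower after vitrification, where 15.6% of tested genes were higher and 4.56% lower. With melatonin against without it was found for 0 higher and 8 lower, against 4.59% and 10.2% of tested genes, and with melatonin against fresh for 10 higher and 2 lower, against 11.6% and 6.82%. Pdk2, Idh3g, Idh1 and Ogdhl are counted both as higher after vitrification and as lower with melatonin. Both counts use the same vitrified libraries, so they are not independent. Ogdhl passed the filter only through the vitrified libraries and fresh replicate 1. The medians of the 48 were 0.25, -0.10 and 0.12, beside 0.14, -0.052 and 0.093 over all tested genes. The 16 citrate cycle enzymes, all tested, had medians of 0.19, 0.019 and 0.19 in the same order, and the 5 pyruvate dehydrogenase subunits 0.12, 0.045 and 0.16. The 13 genes of the NADP-dependent and cytosolic counterparts and the malate-aspartate shuttle had medians of 0.55, -0.24 and 0.31. Of 7 regulators of pyruvate dehydrogenase, 3 were tested: the inhibitory kinases Pdk2 and Pdk3 and the activating phosphatase Pdp2. Their medians were 0.96, -0.55 and 0.10, which pool opposed actions. The other subunits of pyruvate dehydrogenase varied little: Dld, the shared E3, was at 112.6 to 140.0 FPKM and Pdhx, which tethers E3 to the core, at 16.8 to 22.4 FPKM over the 8 libraries.

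The members of these lists with the smallest p after vitrification were the NADP-dependent isocitrate dehydrogenases, relatives of the Idh3 enzyme that make NADPH. Cytosolic Idh1 was at 55.8 and 49.3 FPKM in fresh, 89.0, 118 and 97.8 in vitrified, and 68.5, 89.5 and 64.9 in melatonin libraries. Between vitrified and fresh it differed by 0.93 (limma adjusted p = 0.0541), and mitochondrial Idh2 by 0.74 (0.0607), while the respiratory subunit Sdhb was at -0.23 (0.379) and the citrate carrier Slc25a1 at -0.28 (0.576). Idh3a, the NAD-dependent enzyme's catalytic subunit, was at -0.052 in that comparison. With melatonin against without, the smallest p were those of Ogdhl, a relative of Ogdh (-0.996, limma adjusted p = 0.187) and Idh3g, a regulatory partner of Idh3a (-0.89, 0.198). Ogdhl was near the filter, at 0.77, 0.54 and 0.57 FPKM in melatonin and 2.35, 1.395 and 3.25 FPKM in vitrified libraries. It reached 1 FPKM only in the vitrified libraries and fresh replicate 1 (1.015 FPKM), so its difference is tied to the filter. Among higher genes, ATP citrate lyase Acly was at 0.25 (limma adjusted p = 0.582). With melatonin against fresh, Acly (0.86, limma adjusted p = 0.143) and the pyruvate dehydrogenase phosphatase Pdp2 (0.87, 0.176) were higher, and lactate dehydrogenase Ldha (-1.07, 0.155) and Slc25a1 (-0.65, 0.229) lower. None of these passed.

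For each of the 9 genes, the gene with the most similar profile of log2(FPKM + 1) over the 8 libraries was sought among 5720 genes with a mean of at least 5 FPKM. Pearson's r was 0.988 for Pdhb with Hmgn2 and for Dlat with Fbxo9, 0.978 for Ogdh with Sh3bp5, 0.965 for Cs with Zdhhc5 and for Fh1 with Pycard, and 0.962 for Pdha1 with Adpgk. It was 0.955 for Mdh2 with 9530068E07Rik, 0.945 for Suclg1 with Bmpr1a and 0.892 for Idh3a with Apitd1. None of the nearest genes was another enzyme of the set. Each is the highest of 5720 correlations over shared libraries and is given as a description. Csl, a relative of Cs that could share reads with it, was at 0.507 to 1.62 FPKM, against 80.8 to 140.2 FPKM for Cs. How reads that match both were divided is not known.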

How the data were processed

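RNA-seq values of 8 libraries of mouse blastocysts were taken from 1 table of FPKM deposited by the authors, on genome build mm10 per the submitters' processing notes. For the aligner, counting tool, annotation, filters and strand setting, nothing was given in the sources used here. Positions and transcript lengths are those of GENCODE M21 (GRCm38), matched by Ensembl identifier for 19553 of 19688 genes. Promoters are from RefSeq.

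Genes at 1 FPKM or more in at least 2 libraries were fitted as log2(FPKM + 1) with limma 3.58.1 in R 4.3.3, with 1 mean per group over all 8 libraries and a variance trend, and p-values were adjusted over all 10755 genes. A difference on this scale understates the change of low genes. The script was tested on simulated data. Fragment numbers were estimated from the steps of FPKM in 4956 genes with a single transcript, of which 94.9 to 96.7% came out whole within 0.1. Counting errors cover fragment counting only.

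Groups and replicate numbers come from the sample descriptions. The numbers in the titles differ, and neither set is stated to pair the libraries. Deviations of same-numbered libraries correlated at -0.11 to 0.12. With 2 or 3 libraries per group, and no differently numbered pairs beside them, these values cannot decide whether libraries were paired. The 9 genes and the pathway and marker lists were chosen with earlier results of these data known. All 9 are named. Of the other pathway genes, those past the threshold were to be named, and otherwise up to 2 per direction and comparison with the smallest p; 1 gene named by this rule is not reported here. Other genes are named for their role beside a member. Alternatives were other normalizations, filters, pseudocounts, thresholds, replicate blocks and leaving out each library.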

Additional observations from a re-analysis of the deposited data

How the results depend on the processing

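The 9 enzyme genes had 0 calls in every alternative and comparison, except for Dlat between melatonin and fresh libraries without fresh replicate 2 (0 to 1 calls over the fits without 1 library). Over 513 values of single genes under alternatives, 473 kept direction and side of the threshold, 39 reversed and 1 passed. Many of the 513 could not reverse. A change of variance trend, filter, threshold or of the libraries outside a comparison left its differences as they were. Groups of 2 and 3 libraries limit precision more than depth, and where a fit left the fresh group with 1 library, that library was assumed to vary like the others. The cause of changes was not tested. The fits without 1 library change both how many libraries are used and which ones, and these cannot be told apart.

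Counts over all genes moved far. Between vitrified and fresh, 93 became 3 with quantile normalization, 7 with median ratio scaling, 1 with no filter, 54 with the length trend removed (an alternative chosen after seeing the data), 11 in a fit of the groups compared, 686 at an adjusted p below 0.1, and 2 to 433 without 1 library (2 without vitrified replicate 3, 433 without fresh replicate 2). Between melatonin and vitrified, 15 became 8 with quantile normalization, 6 with a pseudocount of 0.1, 68 in a fit of the groups compared, 45 at an adjusted p below 0.1, and 1 to 68 without 1 library (1 without melatonin replicate 3, 68 without fresh replicate 2). Between melatonin and fresh, 0 became 5 with a pseudocount of 0.1, 2 in a fit of the groups compared, and 0 to 565 without 1 library (565 without fresh replicate 2).

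With a replicate block by description number (3 residual degrees of freedom) the counts were 1 and 1 for the first comparisons, and Mdh2 was at -0.01 between vitrified and fresh. With a replicate block by title number, which leaves 1 residual degree of freedom, they were 39, 0 and 44. There the members' median between vitrified and fresh was 0.495, with Pdhb at 0.147, Idh3a at 0.12 and Suclg1 at 0.038. Ogdh was at -0.087 between melatonin and vitrified, and Idh3a at 0.093 and Suclg1 at 0.002 between melatonin and fresh. The blocks changed no other call.

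Reversals under quantile normalization were Idh3a at 0.12 (vitrified against fresh), Suclg1 at 0.028 (melatonin against vitrified), and Idh3a at 0.108 and Suclg1 at 0.01 (melatonin against fresh). Under median ratio scaling they were Cs at -0.045 and Mdh2 at -0.137 (vitrified against fresh), Idh3a at 0.026 and Suclg1 at 0.037 (melatonin against vitrified), and Pdhb at -0.011 and Mdh2 at -0.025 (melatonin against fresh). With the length trend removed they were Cs at -0.044 and Mdh2 at -0.035 (vitrified against fresh) and Suclg1 at 0.004 (melatonin against vitrified).

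Without 1 library, differences between vitrified and fresh ranged from -0.041 to 0.62 for Pdha1, -0.517 to 0.14 for Pdhb, -0.125 to 0.898 for Dlat, -0.14 to 0.388 for Cs, -0.126 to 0.021 for Idh3a, -0.003 to 0.702 for Ogdh, -0.099 to 0.003 for Suclg1 and -0.058 to 0.124 for Mdh2. Between melatonin and vitrified they ranged from -0.181 to 0.099 for Pdha1, -0.119 to 0.016 for Idh3a, -0.085 to 0.03 for Suclg1 and -0.02 to 0.195 for Mdh2. Between melatonin and fresh they ranged from -0.116 to 0.544 for Pdha1, -0.226 to 0.431 for Pdhb and -0.002 to 0.228 for Mdh2.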

Other observations

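The partner subunits of 2 of the enzymes varied more than the enzymes' own α subunits. These genes were picked after their values were seen and are given without a test. Suclg2, the GTP-specific β subunit that pairs with Suclg1, was at 14.8 and 15.9 FPKM in fresh, 46.2, 33.9 and 43.6 FPKM in vitrified, and 20.2, 53.7 and 19.2 FPKM in melatonin libraries. Melatonin replicate 2 was as high as the vitrified libraries, and the other two were near the fresh ones. Over the same libraries Suclg1 stayed between 129 and 151 FPKM. Sucla2, the ATP-specific β subunit, was at 38.8 and 41.3 FPKM in fresh, 53.9, 51.9 and 48.9 FPKM in vitrified, and 49.8, 61.4 and 53.8 FPKM in melatonin libraries.

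Idh3g, an X-linked regulatory subunit that pairs with Idh3a, was at 28.6 and 25.8 FPKM in fresh, 30.9, 61.7 and 55.8 FPKM in vitrified, and 20.0, 26.0 and 30.3 FPKM in melatonin libraries. The highest values were those of vitrified replicates 2 and 3, the libraries with no Y-linked transcripts and with Xist at 10.5 and 8.14 FPKM, and their part was not tested. Idh3b, the β subunit, lay between 70.0 and 100.8 FPKM in all 8 libraries. The phosphatase Pdp2, which activates E1α, was at 3.73 and 7.45 FPKM in fresh, 14.5, 10.5 and 16.1 FPKM in vitrified, and 11.6, 11.7 and 8.73 FPKM in melatonin libraries. The kinase Pdk2, which inhibits it, was at 2.92 and 3.13 FPKM in fresh, 5.32, 9.52 and 6.21 FPKM in vitrified, and 3.55, 4.79 and 2.07 FPKM in melatonin libraries.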
